A study of Mus musculus with 18 samples.

Results

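Tight junction and cell adhesion genes were followed across the development of the mouse mammary gland in single-cell RNA-seq libraries. The members were 5 claudins (Cldn1, Cldn3, Cldn4, Cldn7 and Cldn8) and 4 partners of the apical junction and of epithelial adhesion (Ocln, Tjp1, Epcam and Cdh1), chosen by name from the 31053 genes of the annotation. All 9 were found in the count matrices, and all 9 were measured in each of 17 mammary libraries. The questions were which epithelial lineage carried each gene, how the mix of claudins changed with stage, and how the genes behaved between late pregnancy, when the tight junctions of the gland are still leaky, and lactation, when they are closed.

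The samples were droplet libraries of Lin– cells (Ter119–CD31–CD45–) sorted on CD24 and CD29 from female mice, with the glands of several animals pooled in each library. C57BL/6 mice gave 1 library each at E18.5, postnatal day 5, pre-puberty (2.5 weeks by the labels), puberty (5 weeks; separate libraries of microdissected terminal end buds, TEBs, and of ducts) and adulthood (10 weeks). FVB/NJ mice gave 3 adult virgin libraries at 10 weeks (A10, P7 and D12), 2 at day 12.5 of pregnancy (H and G), 2 at day 18.5 of pregnancy (F4 and B4), 2 at day 10 of lactation (F11 and D6) and 1 after involution (3 weeks after birth of the litter by the label, but counted from weaning in the study's text). That text also gives another age at pre-puberty, and for lactation it gives day 10 in its methods but other times elsewhere. Both are given here as in the labels. SWISS mice gave 1 adult library at 10 weeks, and a library of E18.5 skin was not part of the comparisons. The E18.5 rudiments came from Lgr5-GFP embryos, and the TEBs and ducts from knock-in mice in which GFP is joined to E-cadherin, so that in those libraries the Cdh1 allele itself was modified. The adult mice were not staged for the estrous cycle. The labels name no deletion and no drug treatment, and only the 4 FVB/NJ stages with 2 or 3 libraries allowed a test between stages.

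Tight junctions seal the space between neighbouring epithelial cells. Claudins are the membrane proteins that form their strands, and the mix of claudins sets which ions and solutes pass between the cells. Occludin, the product of Ocln, lies in the same strands, and Tjp1 (ZO-1) is the scaffold that ties both to the actin cytoskeleton. Cdh1 (E-cadherin) builds the adherens junction just below, and Epcam is an adhesion protein of epithelial cells that binds claudin-7. In the mammary gland the secretory luminal cells face the lumen and carry these seals, and the junctions of the alveoli close around parturition, so that milk does not mix with the interstitial fluid.

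Totals ran from 9920346 UMIs (library P7) to 93234616 UMIs (library D6) per mammary library, and 123574 mammary cells passed the limits of the study, with median totals of 2498 to 21609 UMIs per cell. Library P7 was the shallowest and had cell barcodes of 14 bases, against 16 bases in the others. The transcripts of 8 milk protein genes (the caseins, Wap, Lalba and Glycam1) took 69.5% and 72% of the UMIs of the lactation libraries. They were left out of every total, so that levels below are CPM, the UMIs of a gene scaled to the same total of UMIs outside the milk genes in every library and lineage. Any pair of mammary libraries shared at most 239 cell barcodes, and sharing was uneven. Library A10 shared 172 with H and 92 with E18.5, but 4 with adult C57BL/6, 2 with SWISS and 0 with P7. It shared 1 with postnatal day 5 and 0 with pre-puberty. The study names a single kit version, and whether the libraries with barcodes of 16 bases had the same barcode set was not tested.

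Cells were grouped into basal cells (the outer, myoepithelial layer), luminal progenitor and alveolar cells (LP/alveolar) and mature luminal, hormone-sensing cells (ML) by clustering without the members, and the clusters were named by markers that included none of them. In the adult FVB/NJ libraries, basal markers summed to 14894 to 45097 CPM in basal cells and to 126 to 1215 in LP/alveolar cells. The separation was weaker at the ends of the series. At E18.5 the cells placed with LP/alveolar cells held 1068 CPM of the LP/alveolar markers and 1336 of the basal markers, against 1350 and 2246 in the cells placed with basal cells, so that the markers did not separate the lineages there. At postnatal day 5 the LP/alveolar markers were at 3005 CPM in LP/alveolar cells and at 3016 in basal cells. These 2 libraries are therefore named below by their clusters only. In lactation the ML cells of libraries F11 and D6 held 27092 and 43557 CPM of the LP/alveolar markers, against 840 to 1608 in the adult ML cells.

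The 9 genes lie on 7 chromosomes. Cldn4 (GRCm38 chr5:134945123-134946934) and Cldn3 (chr5:134986214-134987476) are neighbours on chromosome 5, and Cldn1 and Cldn8 are far apart on chromosome 16. The levels of Cldn3, Cldn4 and Cldn7 were correlated over the sums of lineages and libraries (r between 0.885 and 0.968, below), which include the gap between basal and luminal cells. Within a lineage they could part. In ML cells from adult to day 12.5 the fitted fall was 9.47-fold for Cldn4, 2.29-fold for Cldn7 and 1.56-fold for Cldn3, and only that of Cldn4 was called. The sequences around their start sites are shown, from 250 bases before to 50 bases after the start, 5′ to 3′ along the gene, as in RefSeq for GRCm38.p6. Capitals mark matches, on either strand, to the E-box CAGGTG, the site bound by Snail and Zeb repressors in the Cdh1 promoter, and to the GC box GGGCGG, bound by Sp factors. The Cldn3 window was chr5:134985964-134986263 (plus strand), the Cldn4 window chr5:134946885-134947184 (minus strand), and the Cldn7 windows chr11:69964529-69964828 and chr11:69965171-69965470 (plus strand).
Cldn3: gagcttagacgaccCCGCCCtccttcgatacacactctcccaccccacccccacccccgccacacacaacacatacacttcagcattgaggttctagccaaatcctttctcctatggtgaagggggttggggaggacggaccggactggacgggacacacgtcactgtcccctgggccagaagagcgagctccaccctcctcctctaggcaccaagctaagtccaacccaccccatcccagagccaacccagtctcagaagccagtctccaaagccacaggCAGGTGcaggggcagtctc
Cldn4: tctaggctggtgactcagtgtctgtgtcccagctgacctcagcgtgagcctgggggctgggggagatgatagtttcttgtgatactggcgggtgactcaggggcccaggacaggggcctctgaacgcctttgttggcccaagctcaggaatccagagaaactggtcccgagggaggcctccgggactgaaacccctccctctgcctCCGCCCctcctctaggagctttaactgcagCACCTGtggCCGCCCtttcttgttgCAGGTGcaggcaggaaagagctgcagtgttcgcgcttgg
Cldn7, first start: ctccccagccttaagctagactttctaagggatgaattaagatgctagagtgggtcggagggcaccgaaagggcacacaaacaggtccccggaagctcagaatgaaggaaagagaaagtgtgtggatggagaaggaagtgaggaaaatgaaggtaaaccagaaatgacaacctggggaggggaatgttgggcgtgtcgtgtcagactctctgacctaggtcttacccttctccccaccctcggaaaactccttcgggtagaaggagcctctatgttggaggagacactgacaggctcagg
Cldn7, second start: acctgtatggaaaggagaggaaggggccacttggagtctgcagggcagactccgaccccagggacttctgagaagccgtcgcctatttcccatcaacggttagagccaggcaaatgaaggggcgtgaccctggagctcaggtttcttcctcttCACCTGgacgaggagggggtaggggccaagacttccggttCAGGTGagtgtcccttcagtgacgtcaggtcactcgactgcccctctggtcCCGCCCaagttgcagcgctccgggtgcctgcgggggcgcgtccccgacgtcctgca
The Cldn3 window held 1 GC box and 1 E-box, the Cldn4 window 2 of each, and the second Cldn7 window 1 GC box and 2 E-boxes, while the first Cldn7 window held neither. Over 32851 promoter windows of the same length, 35.7% held the GC box and 20.2% the E-box, so both motifs are common. The TATA box TATAAA, in 13.6% of all windows, and the site AACNNGTT of Grainyhead-like factors, in 4.2%, were in none of the 9 windows of the 7 members that had one. These matches describe the letters of the windows and say nothing of binding.

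Cldn3, Cldn4, Cldn7, Cldn8 and Ocln were luminal. Each of these 5 genes was higher in LP/alveolar than in basal cells in 17 of 17 mammary libraries. Counts over the 17 libraries, here and below, take in E18.5 and postnatal day 5 by cluster only, since the markers did not separate these lineages there. Cldn3, Cldn4, Cldn7 and Ocln were also higher in ML than in basal cells in 17 of 17, and so was Cldn8 in all libraries but that of E18.5, where its ML cells held 0 UMIs. Cldn1 was carried by LP/alveolar cells and hardly by ML cells. Epcam and Cdh1 were luminal too, but basal cells kept a clear level of both, and Tjp1 had no lineage in which it was higher throughout. The lineages were defined from the same cells, so these differences are descriptions of the libraries and were not tested.

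Cldn3 and Cldn7, broadly expressed sealing claudins, were the most even pair. Cldn3 stood at 627, 1485 and 752 CPM in the LP/alveolar cells of the adult FVB/NJ libraries A10, P7 and D12, at 356, 1054 and 578 in their ML cells and at 20.5, 35 and 93.1 in their basal cells. On the log2 scale it was 4.45 ± 1.26 (SD, n = 3 libraries) higher in LP/alveolar than in basal cells, a 21.8-fold difference, and 0.56 ± 0.23 lower in ML than in LP/alveolar cells. Cldn7 was 4.78 ± 1.18 higher in LP/alveolar than in basal cells and lower in ML than in LP/alveolar cells in 15 of 17 libraries. With each adult library left out in turn, the difference between LP/alveolar and basal cells ran from 3.97 to 5.17 for Cldn3 and from 4.29 to 5.43 for Cldn7.

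Cldn1, a sealing claudin that is best known from the barrier of the skin, separated the luminal lineages most sharply. Its LP/alveolar level in A10, P7 and D12 was 62.8, 43.8 and 20.6 CPM, against 2, 1.37 and 1.46 in ML cells and 1.39, 0.761 and 1.23 in basal cells. The LP/alveolar level was 32.2-fold above the basal level and 23.2-fold above the ML level (means of the log2 differences, n = 3). It was higher in LP/alveolar than in ML cells in 16 of 17 libraries, the exception being lactation library D6. Over the mammary libraries its LP/alveolar level ran from 4.77 to 65.1 CPM, with a median of 24.7.

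Cldn8 and Cldn4, the claudins linked to tight, ion-selective epithelia such as the kidney collecting duct, leaned the other way. Cldn8 stood at 6.59, 43.3 and 15.5 CPM in the LP/alveolar cells of A10, P7 and D12 and at 21, 159.6 and 62.8 in their ML cells. Its ML level was 3.61-fold above the LP/alveolar level in the adult FVB/NJ libraries (log2 1.85 ± 0.17, n = 3). It was higher in 14 of 17 libraries with 0.5 counts added, although in 1 of them, postnatal day 5, the levels were alike (20.2 in ML and 20.3 in LP/alveolar cells). For Cldn4 the same log2 difference was 0.68 ± 0.50, and its ML level was higher in 11 of 17 libraries, so its order within the luminal cells varied between libraries.

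Ocln was higher in LP/alveolar than in basal cells of the adult FVB/NJ libraries by log2 4.88, 6.80 and 3.94 in A10, P7 and D12 (5.21 ± 1.46, SD, n = 3, and 4.41 without P7, whose basal cells held 2 Ocln UMIs, or 5.84 without D12) and lower in ML than in LP/alveolar cells in 14 of 17 libraries. Epcam stood at 2026, 5436 and 2181 CPM in LP/alveolar cells of A10, P7 and D12 and at 442, 888 and 327 in basal cells, a 5.72-fold difference. Cdh1 was 3.23-fold higher in LP/alveolar than in basal cells and differed between the luminal lineages by less than the spread (log2 0.09 ± 0.25, n = 3). Tjp1 showed a log2 difference of -0.02 ± 0.34 between LP/alveolar and basal cells and was higher in LP/alveolar cells in 10 of 17 libraries and lower in the other 7. Its basal level ran from 32.1% of the LP/alveolar level in TEBs to 180% in D6. Library P7 stood apart for Tjp1, at 5.71 CPM in its LP/alveolar cells against 22.5 to 71.4 in the other 16 libraries.

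**Figure D1:**
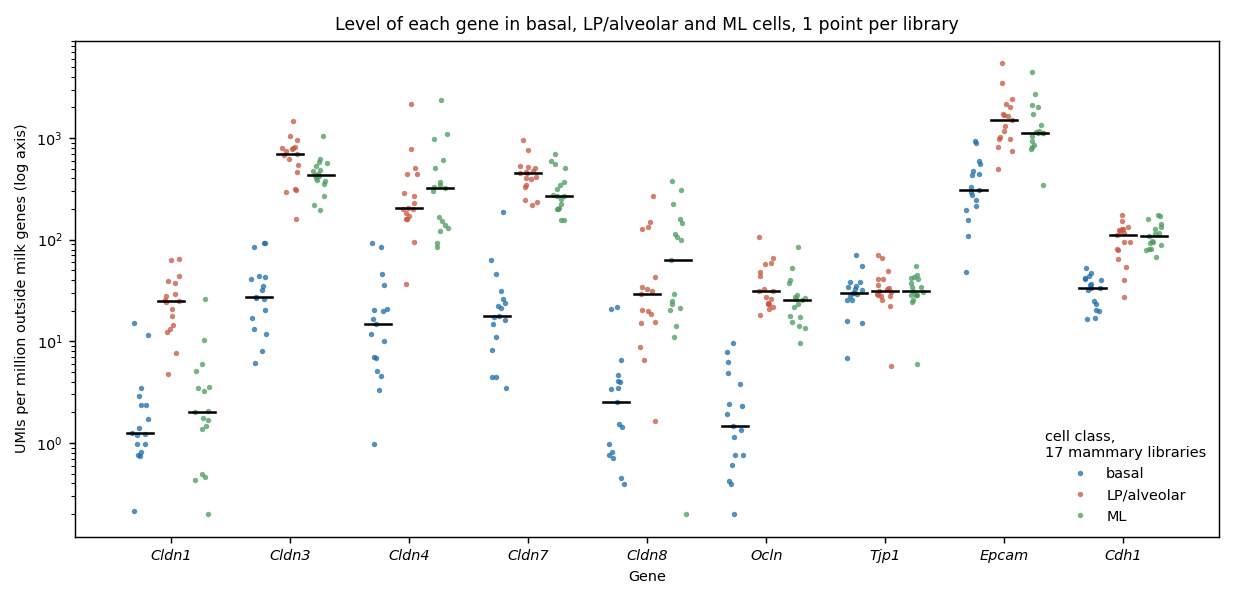
Level of each of the 9 genes (CPM outside the milk genes, log axis) in basal, LP/alveolar and ML cells, 1 point for each of 17 mammary libraries, with bars at the medians; values under 0.2 are drawn at 0.2. The medians of the 5 claudins and Ocln lie far lower in basal than in LP/alveolar cells, Cldn1 is low in ML cells, and the Tjp1 medians (29.9, 31.5 and 31 in basal, LP/alveolar and ML cells) lie together.

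Whether basal cells had claudin transcripts of their own was examined against the fibroblasts of the same suspensions, which should lack them. In the 12 libraries with 20 or more fibroblasts, the basal level was above the fibroblast level in 4 libraries for Cldn3 and Cldn7, in 5 for Cldn4 and Cldn1, in 6 for Cldn8 and in 7 for Ocln. For the 5 claudins the basal level thus exceeded the fibroblast level in 4 to 6 of 12 libraries, and the part of free RNA in the basal levels was not tested. Epcam and Cdh1 were higher in basal cells than in fibroblasts in 12 of 12 libraries. With every cell thinned to 500 UMIs, the median share of cells with an Epcam UMI was 13.9% among basal cells (17 libraries) and 5.28% among fibroblasts (12 libraries). The same share for Cldn3 was 1.28% and 2.71%, for Cldn7 0.898% and 0.983%, and for Cldn4 0.654% and 0.209%. These medians are over unlike sets of libraries, so no order of basal cells and fibroblasts follows from them.

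Expressed as a share of the LP/alveolar level of the same library, the median basal level was 5.11% for Cldn1, 4.57% for Cldn3, 4.86% for Cldn4, 4.85% for Cldn7, 7.34% for Cldn8 and 5.55% for Ocln. The sum of the 10 LP/alveolar markers had a median basal share of 9.59%. It was 126% at E18.5 and 100.4% at postnatal day 5, and the order differed between libraries: in adult A10 the markers had 6.37%, Cldn4 8.26% and Cldn8 12.4%. The median basal shares of Epcam, Cdh1 and Tjp1 were 21.0%, 30.5% and 93.9%.

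**Figure D2:**
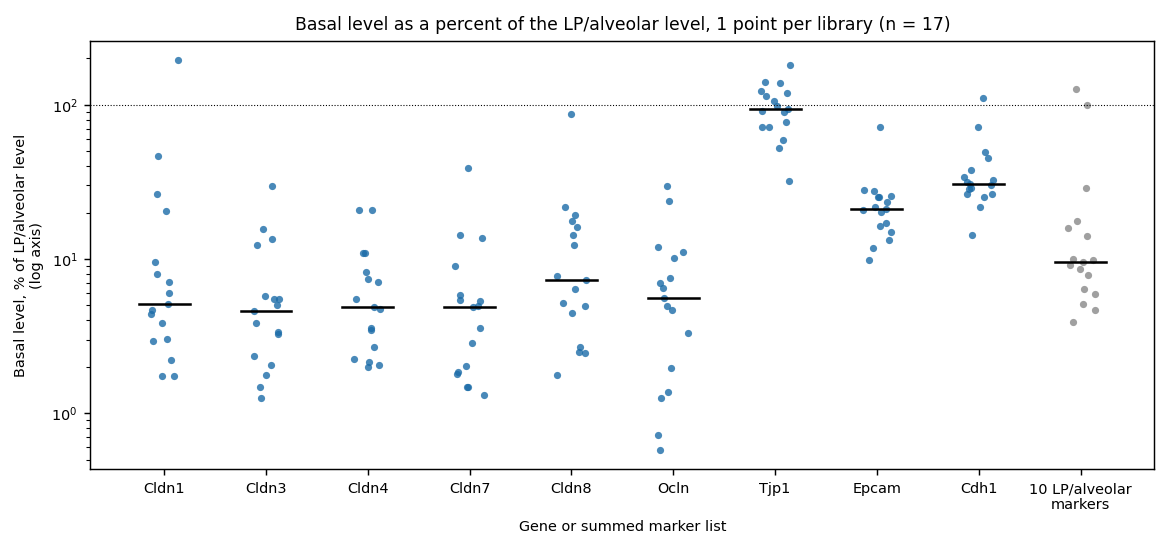
Basal level as a percent of the LP/alveolar level of the same library (log axis), 1 point for each of 17 mammary libraries, with bars at the medians and a dotted line at 100%. The medians of the 5 claudins and Ocln, 4.57% to 7.34%, lie at or under that of the 10 LP/alveolar markers summed (9.59%, grey), and those of Epcam, Cdh1 and Tjp1 lie above it.

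The 3 youngest stages were 1 library each. At E18.5, Cldn7 stood at 474 CPM in the cells placed with LP/alveolar cells (95% Poisson interval 464 to 485, which covers counting error only, like the intervals below) and 185 in those placed with basal cells (176 to 195). Cldn7 took 48.7% of the claudin UMIs of the former and 58% of the latter, the largest share of the 5. Cldn8 was near the floor there, at 27 UMIs in 2508 cells (1.65, 1.08 to 2.40), and 0 UMIs were found in the 47 ML cells, which allows up to 11.9.

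At postnatal day 5 the LP/alveolar level of Cldn4 was 781 CPM and its ML level 1099. Its shares of the claudin UMIs there, 42.7% and 50.2%, were above the 24.9% and 35.3% of the adult library of the same strain, C57BL/6. They lay within the wide range of the adult FVB/NJ libraries. Cldn8 had reached 20.3 and 20.2 CPM. Epcam in the cells of the basal cluster was 928 CPM at E18.5, 477 at postnatal day 5 and 48.6 at pre-puberty. The pre-puberty library was the lowest of the 17 for Epcam in each lineage, at an LP/alveolar level of 494 CPM and an ML level of 343, while its LP/alveolar Cdh1 level of 154 was the second highest. The level of Epcam in the basal cluster was 71.5% of that in the LP/alveolar cluster at E18.5 and 9.83% at pre-puberty, the highest and the lowest of the 17 libraries. At E18.5 the markers did not separate these clusters. No error between animals can be given for these stages. The E18.5 library shared 92 cell barcodes with A10 but 0 with postnatal day 5 and 0 with pre-puberty. A difference in capture between E18.5 and the later libraries thus cannot be told apart from stage.

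TEBs and ducts are the growing tips and the trailing tubes of the pubertal tree, and their libraries were processed concurrently. In LP/alveolar cells their levels of Cldn3, Cldn1 and Cldn7 were close. Cldn3 stood at 1055 CPM in TEBs and 960.2 in ducts, Cldn1 at 37.4 and 38.9, and Cldn7 at 408 and 341. Cldn8 was 29.0 CPM (24.6 to 34.0) in the LP/alveolar cells of TEBs and 18.4 (15.2 to 22.1) in those of ducts, but 14.3 (12.8 to 15.8) in the ML cells of TEBs and 24.8 (21.8 to 28.0) in those of ducts. The order of TEBs and ducts was thus opposite in the luminal lineages, in 1 library each. Cldn1 in ML cells was 1.74 CPM (1.27 to 2.34) in TEBs and 6.03 (4.62 to 7.72) in ducts. Cdh1, whose allele carries GFP in these mice, stood at 117 and 78.9 in LP/alveolar cells.

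Among adult glands, the LP/alveolar levels of the C57BL/6 library lay outside the range of the 3 FVB/NJ libraries for Tjp1 and Cdh1. Those of the SWISS library did so for Cldn1, Cldn4, Tjp1 and Cdh1. The same was not counted over all genes, so nothing particular to these members follows from it. The shallow library P7 set the upper end for Cldn4 and Cldn8 and the lower end for Tjp1. Of the C57BL/6 LP/alveolar cluster, 73.4% of cells passed the marker gate, against 98.5% to 98.6% in the FVB/NJ libraries. In LP/alveolar cells Cldn1 stood at 65.1 CPM in SWISS and 24.7 in C57BL/6, against 20.6 to 62.8 in FVB/NJ. Cldn8 stood at 8.86 and 15.1, against 6.59 to 43.3. Tjp1 was 65.8 and 71.4, above the 5.71 to 33.4 of the FVB/NJ libraries. C57BL/6 and SWISS had 1 adult library each. By the study's methods these were processed concurrently with each other, and adult FVB/N was listed with post-involution instead. The C57BL/6 and SWISS libraries also shared few cell barcodes with A10, as given above. The lineages of each strain were named in a separate clustering. Strain, library, clustering and processing thus cannot be told apart.

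Pregnancy and lactation were compared in the 9 FVB/NJ libraries of 4 stages, with an edgeR quasi-likelihood test on the UMIs summed per library and lineage, and Benjamini-Hochberg adjustment over all genes tested. Levels in this comparison are scaled by TMM, a correction for differences in RNA make-up between libraries. In LP/alveolar cells 4 of the 9 members changed across the stages (Cldn8, Cldn1, Epcam and Cldn4), against a background of 32.2% of 12998 genes called, a share near that of the members. Cldn8 was higher in late pregnancy and lactation, and Cldn4 and Cldn1 were lower in lactation. By edgeR 0 members were called in a single step between successive stages in these cells, against 12.5% of genes from adult to day 12.5, 0.985% from day 12.5 to day 18.5 and 3.35% from day 18.5 to lactation. At an unadjusted p under 0.05 the 3 steps held 2, 1 and 0 members, and DESeq2 called 1 (Epcam), 1 (Cldn8) and 0, against 18.1%, 5.62% and 6.82% of genes by DESeq2.

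Cldn8 was the member with the lowest adjusted p across the stages in LP/alveolar cells. Its LP/alveolar level was 7.10, 34.0 and 13.6 CPM in the adult libraries A10, P7 and D12, 32.8 and 30.5 in H and G at day 12.5, 125 and 162 in F4 and B4 at day 18.5, and 155 and 318 in F11 and D6 at lactation. The late pregnancy and lactation libraries did not overlap with the earlier ones. The change across the 4 stages had an adjusted p of 0.0036, and it was called in each of the 17 settings tried, with adjusted p of at most 0.0173. The stage means were 18.2 ± 14.0 (SD, n = 3), 31.6 ± 1.62, 144 ± 25.9 and 237 ± 116 (n = 2 each). Of the single steps, that from day 12.5 to day 18.5 of pregnancy was the largest, at log2 2.18 ± 0.64 (SE), with an adjusted p of 0.128. The step to lactation was log2 0.72 ± 0.62, with an adjusted p of 0.63, and the libraries of late pregnancy and lactation overlapped.

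The share of cells with a Cldn8 UMI was also higher in late pregnancy and lactation. With each cell thinned to 500 UMIs, a Cldn8 UMI was found in 0.557%, 2.76% and 0.643% of the LP/alveolar cells of A10, P7 and D12, in 1.67% and 1.51% of those of H and G, in 6.35% and 7.63% of those of F4 and B4, and in 6.41% and 11.9% of those of F11 and D6. Without thinning, D6 had a share of 63.6% at a median of 4193 UMIs per cell and F11 a share of 25.4% at 2115. Among the fibroblasts of F11 and D6 (79 and 479 cells), 1.27% and 1.04% held a Cldn8 UMI after thinning. Among the fibroblasts of A10, P7 and D12 (193, 53 and 32 cells) 0% did. The LP/alveolar shares of F11 and D6 were above those of their few fibroblasts, and the part of free RNA in the LP/alveolar shares was not tested.

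Cldn4 went the other way. It stood at 218, 1697 and 389.7 CPM in the LP/alveolar cells of A10, P7 and D12, at 271 and 262 at day 12.5, at 156 and 246 at day 18.5, and at 42.7 and 113 in lactation. The lactation libraries were below all others, and P7 was far above them. The change across stages had an adjusted p of 0.0477 and was called in 8 of 17 settings. The stage means were 768 ± 809 (SD, n = 3), 267 ± 6.08, 201 ± 64.1 and 77.9 ± 49.7 (n = 2 each), the first with P7 included.

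Cldn1 also fell across the stages. Its LP/alveolar level was 67.6, 34.4 and 18.1 CPM in A10, P7 and D12, 27.8 and 24.5 at day 12.5, 17.3 and 15.7 at day 18.5, and 5.53 and 9.18 in lactation (36 and 116 UMIs). The lactation libraries lay below all others. The adjusted p across stages was 0.0226, called in 12 of 17 settings, and the step to lactation was log2 -1.15 ± 0.53 with an adjusted p of 0.321. The stage means were 40.1 ± 25.2 (SD, n = 3), 26.1 ± 2.35, 16.5 ± 1.13 and 7.35 ± 2.58 (n = 2 each).

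Epcam was lower from pregnancy on than in the adult. It stood at 2183, 4267 and 1924 CPM in the adult LP/alveolar cells, at 931 and 996 at day 12.5, at 736 and 877 at day 18.5, and at 1142 and 1395 in lactation. The adult libraries did not overlap with any later one. The adjusted p across stages was 0.0402, called in 10 of 17 settings, and the step from adult to day 12.5 was log2 -1.53 ± 0.50 with an adjusted p of 0.0727. The step from day 18.5 to lactation was log2 0.65 ± 0.52 with an adjusted p of 0.600.

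The other 5 members did not pass the test across stages in LP/alveolar cells. Cldn3 went from 664 to 1166 CPM in the adult libraries to 190.2 and 354 in lactation (adjusted p 0.0529), and Cldn7 from 452 to 747 to 256 and 277 (0.0839). Cdh1 stood at 51.2 to 131 in the adult, 123 and 125 at day 12.5, 52.6 and 87.9 at day 18.5, and 31.7 and 47.4 in lactation (0.0802). Ocln was between 17.6 and 82.9 in the 9 libraries (0.0815), and Tjp1 between 22.1 and 36.6 in all but P7, where it was 4.48 (0.762). Without P7, 7 of the 9 members were called across stages, against 46.5% of 12958 genes: Cldn3, Cldn7 and Cdh1 joined the 4 above, and Ocln and Tjp1 did not. Without F4, F11, G, B4 or D6 in turn, Cldn8 alone was called, against 17.7% to 23.1% of genes.

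**Figure D3:**
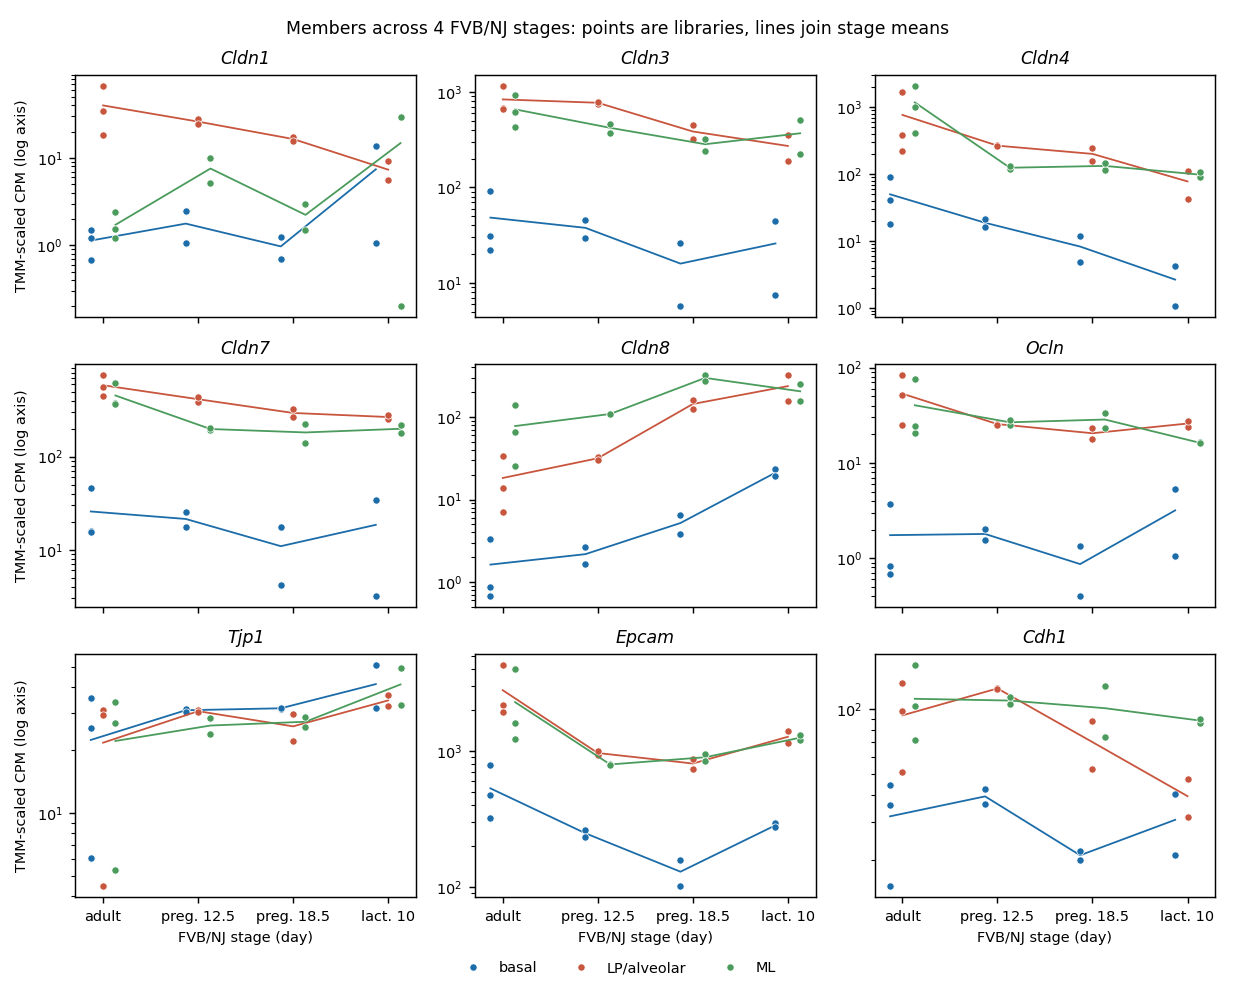
TMM-scaled level (CPM outside the milk genes, log axis) of each of the 9 genes in the 4 FVB/NJ stages with 2 or 3 libraries, by lineage; points are libraries, lines join the stage means, and values under 0.2 are drawn at 0.2. Cldn8 rises in LP/alveolar cells from 7.10 to 34.0 in the adult to 155 and 318 in lactation, Cldn4 falls in all 3 lineages, and library P7 is the low Tjp1 point in each lineage.

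In ML cells 1 of the 9 members changed across the stages, Cldn4 (adjusted p 0.0035), against 10.8% of 9149 genes called. Cldn4 stood at 409.8, 2112 and 1023 CPM in A10, P7 and D12, at 118 and 132 at day 12.5, at 117 and 149 at day 18.5, and at 90.6 and 106 in lactation. All adult libraries were above all later ones, which lay close together. Cldn4 was called in each of the 17 settings. The drop from adult to day 12.5 was log2 -3.24 ± 0.67, with an adjusted p of 0.0143, and Cldn4 was the 1 member called in that step, against 8.31% of genes. Without H or without G the step was not called (1.47% and 1.4% of genes called). By edgeR and by DESeq2, 0 members were called from day 12.5 to day 18.5 (0.0219% of genes by edgeR, 0.787% by DESeq2) and from there to lactation (0.481% and 2.05%), with 1 member at an unadjusted p under 0.05 in each.

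Cldn8 in ML cells was 25.2, 142 and 66.2 CPM in the adult libraries, 109.9 and 108 at day 12.5, 319 and 276 at day 18.5, and 156 and 253 in lactation, with an adjusted p of 0.135 across stages. Cldn1 in ML cells rested on few UMIs, 10 and 6 at day 12.5 and 0 and 24 in F11 and D6. ML cells were scarce outside the adult gland, 189 to 406 cells a library in pregnancy and 402 and 443 in lactation, against 1083 to 3143 in the adult. Their ML markers summed to 2538 to 2998 CPM in pregnancy and 3842 and 2100 in lactation, against 6412 to 7043 in the adult. Their LP/alveolar markers rose from 840 to 1608 in the adult to 3844 to 7423 in pregnancy and to the values given above in lactation. The part of this shift in the changes of Cldn4 was not tested.

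In basal cells 2 of the 9 members changed across stages, against 5.86% of 13434 genes. The basal class took in a cluster led by cell-cycle genes. It made up 1136 of 4712 and 2053 of 8114 basal cells in H and G at day 12.5, and 142 of 5200 and 82 of 2382 in F4 and B4 at day 18.5. Cldn8 rose from 0.879, 0.677 and 3.33 CPM in A10, P7 and D12 to 23.3 and 19.1 in lactation (adjusted p 0.0212). Cldn4 fell from 18.0, 41.3 and 90.5 to 1.06 and 4.24 (adjusted p 0.0345), and these lactation levels rested on very few UMIs. The basal Cldn8 levels of F11 and D6, unscaled 21.6 and 20.7, did not exceed the levels of their fibroblasts, 32.1 (4 UMIs) and 23.7 (27 UMIs). The LP/alveolar markers in basal cells rose alongside, from 1868 to 2883 CPM in the adult to 17448 in F11 and 5101 in D6. As a share of the LP/alveolar level of the same library, these markers stood at 6.37%, 4.69% and 14.1% in A10, P7 and D12. That share was 17.7% in F11 but 3.90% in D6. The part of free RNA in the basal changes was not tested. By edgeR and by DESeq2, 0 members were called in any single step in basal cells, against 0.849%, 0% and 1.03% of genes by edgeR and 4.69%, 1.35% and 2.66% by DESeq2 for the 3 steps in order, with 2, 0 and 3 members at an unadjusted p under 0.05. Without F4, F11, B4 or D6 in turn, neither was called across stages (1.99% to 2.88% of genes called). Both calls were also lost with marker gates (4.67% of genes called), that of Cldn8 with at least 1000 genes per cell (4.85%), and Cldn8 was called in 11 and Cldn4 in 9 of 17 settings.

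Whether stage acted differently in LP/alveolar and basal cells was tested with the library as a block. The stage effect differed for 2 of the 9 members, Cldn1 (adjusted p 0.0091) and Cdh1 (0.0169), against 25.5% of 14465 genes. From adult to day 12.5 and from there to day 18.5, 0 members differed by edgeR (8.89% and 2.36% of genes called), with 0 and 1 at an unadjusted p under 0.05. In the step from late pregnancy to lactation, Cldn1 fell in LP/alveolar relative to basal cells by 4.12 ± 0.88 on the log2 scale (adjusted p 0.0437) and Cdh1 by 1.39 ± 0.30 (0.0445), against 1.44% of genes called. For Cldn8, which rose in both lineages, the difference across stages had an adjusted p of 0.128.

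Library D6 stood apart in basal Cldn1. Its 420 basal cells held 13 Cldn1 UMIs (13.8), against 1.06 in the basal cells of F11 and 0.701 and 1.24 at day 18.5. Basal Cdh1 stood at 21.2 in F11 and 40.3 in D6, against 20.1 and 22.0 at day 18.5. The basal cells of D6 also held endothelial markers at 364 CPM, against 43.2 in F11 and 2.88 and 3.19 at day 18.5, and immune markers at 228, against 20.6 in F11 and 1.63 and 2.24 at day 18.5. Without D6, 0 of the 9 members were called, across stages (20.7% of genes called) or in the step to lactation (0.201%), where the Cldn1 difference became log2 -1.78 ± 2.19 (adjusted p 0.835) and that of Cdh1 -1.19 ± 0.39 (0.297). The Cdh1 difference lay between -1.51 and -0.93 whichever library was left out, the latter without B4, and passed the threshold in 1 of these 9 fits, the one without D12. For Cldn1 the call in this step was also lost without F4, P7 or B4, at differences of -4.30, -3.95 and -3.68. The sort on CD31– and CD45– cells was made to remove these cell types, and their part in the difference was not tested.

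**Figure D4:**
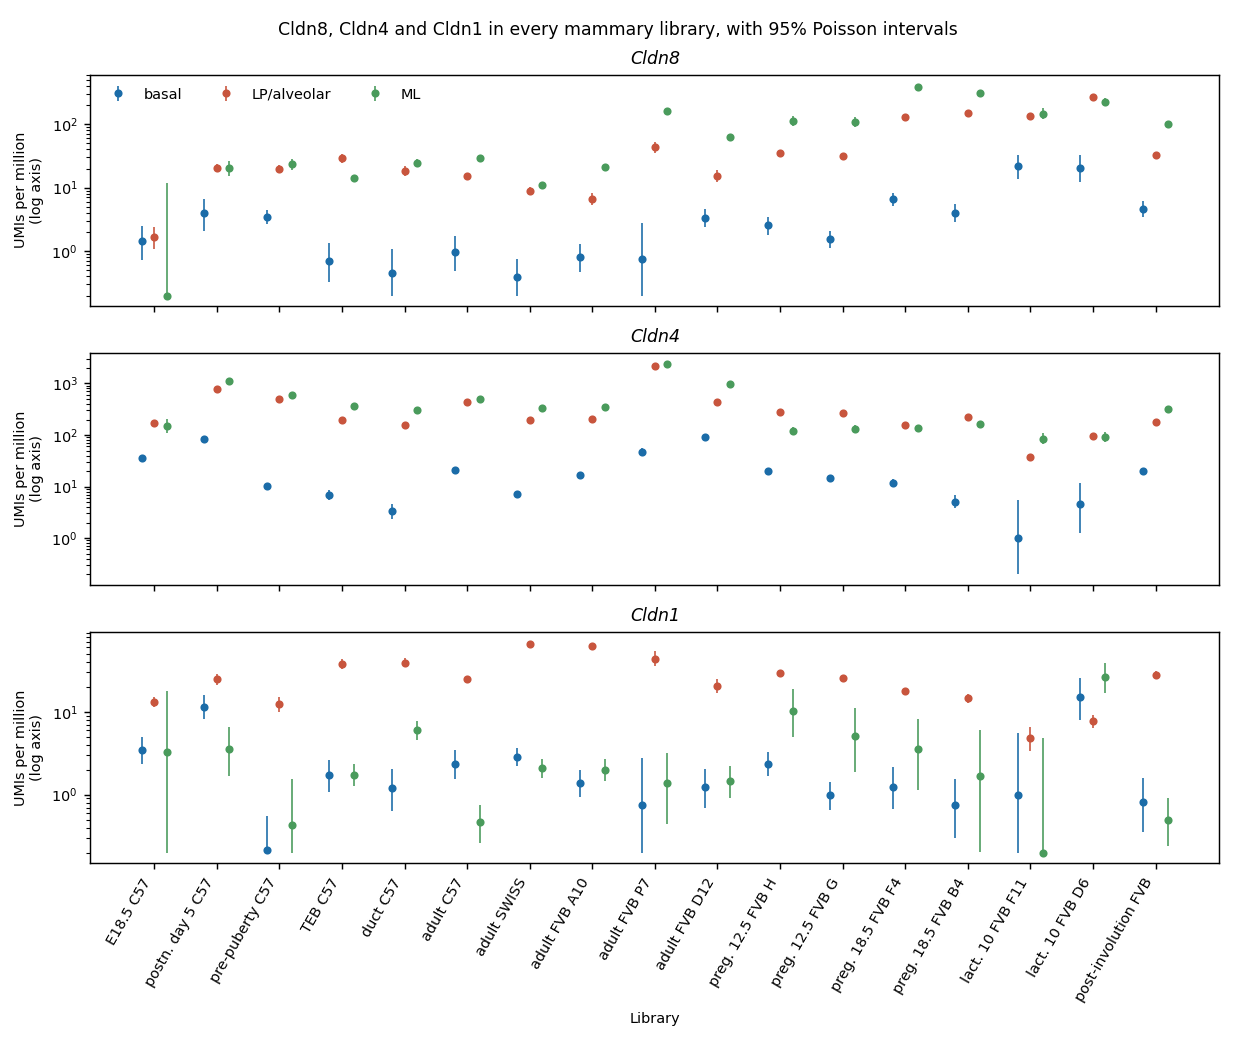
Levels of Cldn8, Cldn4 and Cldn1 (CPM outside the milk genes, log axis) in basal, LP/alveolar and ML cells of each of 17 mammary libraries, with 95% Poisson intervals that cover counting error only; values under 0.2 are drawn at 0.2. Cldn8 in LP/alveolar cells is highest in late pregnancy and lactation, Cldn4 in the luminal cells peaks in adult library P7, and in lactation library D6 the Cldn1 levels of ML and basal cells (25.97 and 14.97) lie above that of LP/alveolar cells (7.70).

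The make-up of the claudin pool, here the 5 member claudins only, followed from these levels. Other claudins were not counted in it, among them Cldn10, which stood at 15.6 to 43.0 CPM (TMM-scaled) in adult FVB/NJ LP/alveolar cells. UMIs are counted at the 3′ end and are not divided by length, and the order of the claudins within a library is that of their UMIs only. Changes are read from the share of the same claudin in other libraries. In LP/alveolar cells Cldn3 held the largest share in 13 of 17 libraries. Cldn8 held 0.466% to 0.924% of the UMIs of the 5 claudins in adult FVB/NJ cells, 1.97% to 2.23% at day 12.5, 11.7% to 16.1% at day 18.5 and 19.0% (F11) to 35.1% (D6) in lactation. In D6 it was the largest of the 5. Cldn4 went from 14.3% to 46.1% in the adult to 5.26% and 12.4% in lactation, while Cldn7 held 20.3% to 36.5% in the adult and 30.5% and 31.5% in lactation.

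The ML values are those of the ML cluster, of whose cells 95.7% to 99.3% passed the ML marker gate in the adult FVB/NJ libraries, 75.4% to 88.4% in pregnancy and 45.3% (F11) and 34.5% (D6) in lactation. In that cluster the Cldn8 share was 2.03% to 3.72% in the adult, 12.2% and 13.1% at day 12.5, 32.3% and 34.1% at day 18.5, and 16% and 31.9% in lactation. Cldn4 held 33.1% to 55.4% of the claudin UMIs of the cluster in the adult and 9.24% and 13.4% in lactation. Cldn1 held at most 4.44% in LP/alveolar cells of any adult FVB/NJ library.

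**Figure D5:**
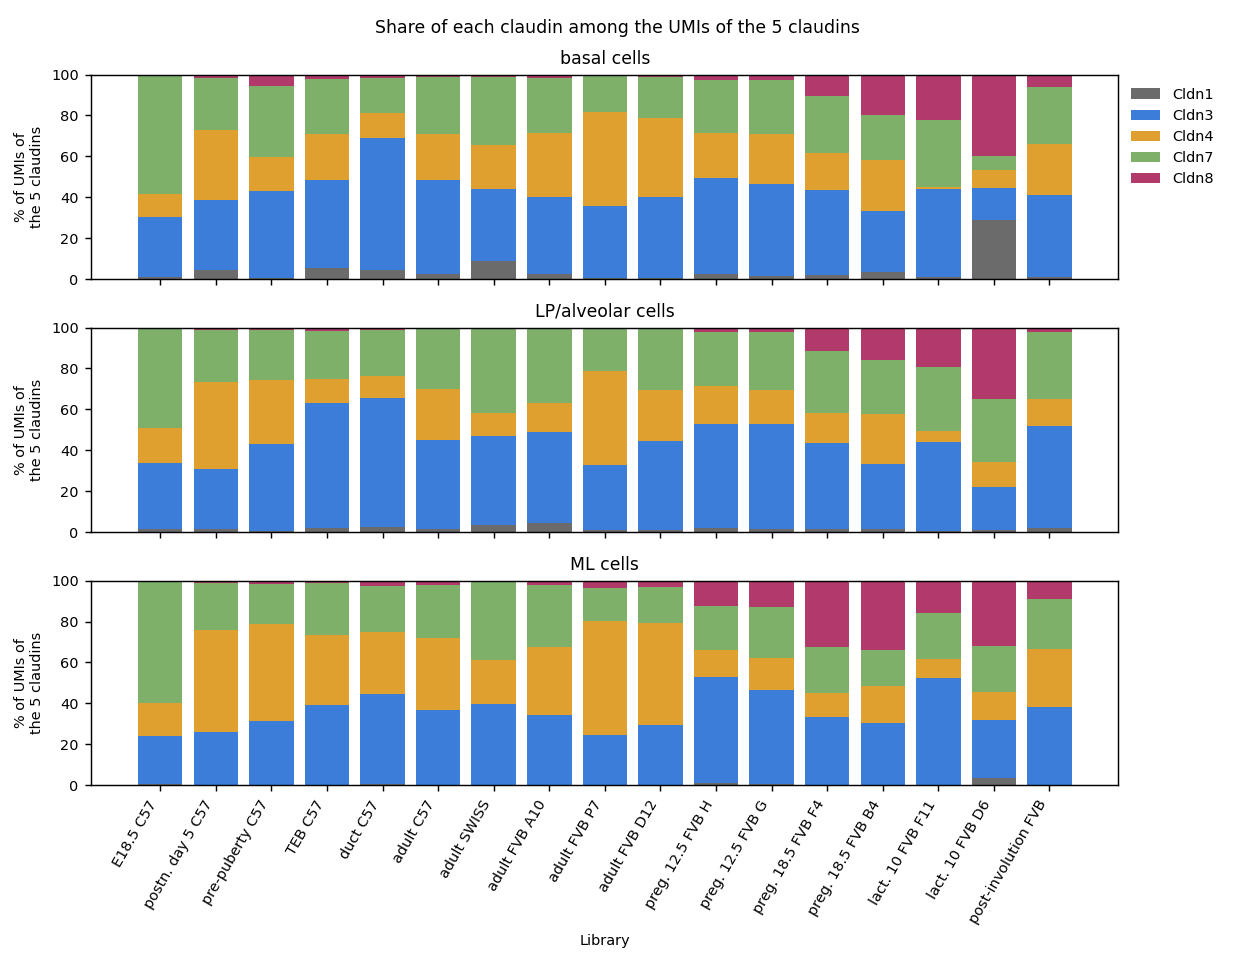
Share of each of the 5 claudins in their summed UMIs (percent, stacked to 100) in basal, LP/alveolar and ML cells of each of 17 mammary libraries. Cldn8 is thin in the adult libraries and widens in late pregnancy and lactation to 35.1% of the LP/alveolar pool in D6, and at E18.5 Cldn7 is the largest share in each lineage.

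After involution there was 1 FVB/NJ library, which is set here beside the adult FVB/NJ libraries. Overlap with them was not counted over all genes, so nothing particular to the members follows from it. In LP/alveolar cells Cldn1 stood at 27.8 CPM and Cldn3 at 695, both within the adult range, and Cldn4 at 182, below the lowest unscaled adult level of 203. Cldn7 at 457 and Epcam at 1678 were also below their lowest unscaled adult levels, 512 and 2026. Cldn8 stood at 32.6 CPM in LP/alveolar cells (29.6 to 35.8) and 100.2 in ML cells (95.9 to 105), between the unscaled adult extremes of 6.59 to 43.3 and 21 to 159.6. Both upper extremes are those of the shallow library P7, and the levels after involution were above those of A10 and D12. Its share of the claudin pool was 2.34% in LP/alveolar and 8.91% in ML cells, above the 0.924% and 3.72% that the adult FVB/NJ libraries reached at most. With 1 library the difference could not be tested.

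The junction genes around the members were taken from fixed lists of 72 genes, of which 71 were in the annotation: 20 other claudins, 10 other tight junction membrane proteins, 16 scaffold and polarity proteins, 11 partners of the adherens junction and 15 regulators of epithelial junction genes. Across the stages, 21 of 54 tested were called in LP/alveolar cells, 7 of 44 in ML cells and 10 of 57 in basal cells, against backgrounds of 32.2%, 10.8% and 5.86%. In LP/alveolar cells these were 6 of 7 other claudins, 5 of 9 membrane proteins, 3 of 16 scaffold and polarity proteins, 2 of 10 adherens junction partners and 5 of 12 regulators.

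From adult to day 12.5, 3 of these genes rose and 6 fell in LP/alveolar cells, against 5.29% and 7.21% of genes, and the median log2 change of the 54 was -0.29 against -0.03 for all genes. Pard6b, a polarity protein of the apical domain, rose from 16.5 to 21.7 CPM in the adult to 46.1 and 47.2 (log2 1.35 ± 0.31, adjusted p 0.0238). Grhl1, a Grainyhead-like transcription factor of epithelia, rose by log2 1.16 ± 0.30 (0.0361), and Cldn12 by 0.94 ± 0.27 (0.0472). Cldn10 fell from 15.6 to 43.0 in the adult to 0.332 and 1.07 (log2 -5.45 ± 0.81, 0.0044). The repressor Snai1 fell from 1.83 to 6.35 to 0.488 and 0.516 (0.0115), and Cldn2, a pore-forming claudin, stood at 0.374 to 2.94 and then at most 0.111 (0.0265). Cldn2 passed the filter on low counts through the adult libraries, was not tested without A10 or D12, and lost its call without H, F4, G or B4.

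In ML cells 3 rose and 2 fell at day 12.5, against 4.8% and 3.51% of genes. Cdh2 (N-cadherin) stood at 0 to 0.147 CPM in the adult ML cells and at 61.9 and 71.5 at day 12.5 (adjusted p 0.00011). Mpdz, a scaffold with many PDZ domains, rose from 0.732 to 1.33 to 11.2 and 12.98 (0.0041), and Cdh3 (P-cadherin) from 0.488 to 3.67 to 16.98 and 19.8 (0.0164). Cdh2, Mpdz and Cdh3 passed the filter on low counts through libraries of later stages, since their adult levels were too low for it. Klf4, a transcription factor of differentiated epithelia, fell from 252 to 708 to 111 and 125 (0.0253). The ML cells of pregnancy were few and held LP/alveolar markers, as given above. In basal cells, Cldn10 fell from 19.4 to 47.7 to 1.11 and 1.39 (0.0138), and no other list gene was called, against 0.849% of genes.

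At lactation against day 18.5, 2 of 54 list genes rose and 1 fell in LP/alveolar cells, and 3 of 57 rose in basal cells, against 2.33%, 1.02% and 0.93% of genes. Cldn5, the claudin of endothelial cells, went from 0.192 and 0.413 CPM to 5.06 and 7.84 in LP/alveolar cells (adjusted p 0.0084) and from 0.191 and 0.301 to 16.9 and 49.8 in basal cells (0.0073). Esam, an adhesion molecule of endothelial cells, rose in LP/alveolar cells by log2 2.99 ± 0.60 (0.0277) and in basal cells by 5.14 ± 0.79 (0.0161). Zeb1, a repressor of Cdh1, was at 0 in the basal cells of both libraries of day 18.5 and at 1.06 (1 UMI) and 11.7 (11 UMIs) in lactation (0.0399). It passed the filter on low counts through the lactation libraries, was not tested without A10, D12 or D6, and lost its call without H, F4, G or B4. Endothelial markers in LP/alveolar cells rose alongside, from 2.49 and 2.64 CPM to 18.4 and 26.2, and in basal cells as given above. An unnamed cluster with raised endothelial markers held 84 and 79 cells in F4 and B4, and 555 and 1403 in F11 and D6. The part of such cells in the changes of Cldn5, Esam and Zeb1 was not tested. Pard6b fell in LP/alveolar cells from 26.9 and 46.3 to 9.99 and 15.3 (0.0482).

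The genes most like each member were sought over the 51 sums of 3 lineages and 17 libraries, among 5459 genes, as the Pearson correlation of log2 levels. The sums share libraries and mix basal with luminal cells, so these are descriptions. Cldn3 was most like Rab25, a small GTPase of epithelial recycling vesicles (r = 0.95), the polarity gene Crb3 (0.946) and the tight junction gene Marveld3 (0.939). Cldn7 was most like Crb3 (0.939) and Ocln most like Marveld3 (0.934). Cldn4 was most like the luminal keratin gene Krt18 (0.919). Among the members, Cldn3 and Cldn7 were closest to each other (r = 0.968), and Tjp1 was like none of the claudins (r between -0.12 and 0.11). The nearest genes of Cldn8 (Atp6v1g1, a subunit of the proton pump, r = 0.884), Cdh1 (Notch3, 0.895), Epcam (Rhov, 0.863), Tjp1 (Rasa1, 0.844) and Cldn1 (Crabp2, 0.775) were not on these lists.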

How the data were processed

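Per the labels and the methods of the study, Lin- mammary cells were captured with 10x Chromium 3′ chemistry, and the authors aligned the reads to mm10 and made UMI counts per gene and barcode with Cell Ranger (3.1.0 in the submitters' processing notes; 3.0.2 or 3.1.0 in the file headers). The deposited values are raw counts, 1 matrix per library. The 9 members and all gene lists were chosen with earlier results of these data known.

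Barcodes were filtered by the limits of the study, with at least 500 genes per cell, which kept 132599 of 149371 barcodes. Clusters were made with Seurat 5.3.0 (R 4.3.3) without the 8 milk genes and with the members, junction genes and cell-cycle genes kept out of the variable genes. Separate sets were clustered: FVB/NJ, C57BL/6 from E18.5 to adult, TEBs with ducts, and all adults, which gave the SWISS lineages. In SWISS, 688 of the 2935 ML cells came from a cluster led by cell-cycle genes, and 460 cells of an unnamed cluster were left out of the sums. A cluster was named where at least 3 fixed markers were raised 2-fold (5 CPM added, 5% of cells). In the FVB/NJ libraries a cluster led by cell-cycle genes stayed unnamed and was left out of the sums (1831 of 11120 cells in H, 1622 of 13397 in G). Another such cluster was named basal, with 1136 of the 4712 basal cells of H and 2053 of the 8114 of G, but 5 of 873 in F11. These shares differed between stages, and their part in the stage results was not tested. Doublets were sought with Scrublet, which marked under 0.5% of the cells of E18.5, F11, D6 and the TEB and duct libraries (0.379% and 0.412%), so that doublets were not assessed there; called doublets were left out as an alternative only. UMIs were summed per library and lineage with at least 20 cells. A library pools several mice and was the replicate, so p-values measure the spread between libraries. Stages were tested with edgeR 4.0.16 (quasi-likelihood, TMM, Benjamini-Hochberg, threshold 0.05), for single steps, across the 4 stages, and for LP/alveolar minus basal with a library block. Lineage log2 differences had 0.5 counts added. Intervals were exact Poisson at 95%, and a count of 0 was set against its upper bound. All members are named. Of the lists, up to 4 called genes per lineage, step and direction with the largest log2 change are named, where the libraries of both stages do not overlap. The values of 1 list gene that the rule names are not reported here. On simulated counts for the step to lactation, 4-fold changes were called in 43% (basal), 49% (LP/alveolar) and 34% (ML) of changed genes and 2-fold changes in 0%, 1% and 2%. DESeq2 1.42.0, no TMM, milk genes kept, no filter, at least 1000 genes per cell, marker gates and leaving out each library were the alternatives.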

Additional observations from a re-analysis of the deposited data

Results flagged for a closer look

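The stage effect differed between LP/alveolar and basal cells for Cldn1 (adjusted p 0.0091 across the 4 stages, edgeR) and Cdh1 (0.0169). These were 2 of the 9 members, against 25.5% of 14465 genes called, a share near that of the members. In the step from day 18.5 of pregnancy to lactation the difference was log2 -4.12 for Cldn1 and -1.39 for Cdh1. Without library D6 these step values were -1.78 (adjusted p 0.835) and -1.19 (0.297), and 0 of the 9 members were called, against 0.201% of genes in the step and 20.7% across the stages. For Cdh1 the step value lay between -1.51 and -0.93 whichever library was left out.

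The E18.5 skin library, which enters no comparison, held each member above the limit that a count of 0 allows (0.0595 CPM, counts scaled to the total outside the milk genes). Over its 9025 cells, Cldn1 stood at 4.01 CPM, Cldn3 at 14.1, Cldn4 at 7.68, Cldn7 at 10.3, Cldn8 at 0.397, Ocln at 0.794, Tjp1 at 18.5, Epcam at 41.5 and Cdh1 at 2.96. Over the 6398 cells of the E18.5 mammary library, captured alongside, the same values were 8.04, 188, 91.5, 302, 1.80, 19.1, 23.8, 903 and 67.5, each higher than in skin. Cells of the skin library were not divided by type here, and the study describes its major cluster as rich in fibroblast genes. The skin values are thus not those of skin epithelium alone.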

How the results depend on the processing

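No paired analysis was possible because the labels give no replicate numbers shared between stages. Counts of members called across the stages moved by more than 1.5 times as follows, each beside the share of all genes tested that the same setting called. In basal cells (2, 5.86%) DESeq2 gave 4 (14.3%), no filter 5 (12.1%), at least 1000 genes per cell 1 (4.85%) and marker gates 0 (4.67%). In LP/alveolar cells (4, 32.2%) DESeq2 gave 8 (41.5%), no TMM 7 (33.5%), milk genes kept 2 (30.7%) and no filter 7 (29.3%). In ML cells (1, 10.8%) DESeq2 gave 4 (16.6%) and no filter 3 (13.4%), and for LP/alveolar minus basal (2, 25.5%) no filter gave 4 (23.6%). In single steps, no filter gave 1 in basal cells from adult to day 12.5 (5.08%) and 2 to lactation (2.85%), and 1 in LP/alveolar cells at day 12.5 (13.3%) and 1 at day 18.5 (4.56%). DESeq2 gave 1 and 1 in those LP/alveolar steps (18.1% and 5.62%) and 2 in ML cells at day 12.5 (11.2%). Leaving out each library in turn gave 0 to 3 in basal (1.99% to 12.9% of genes), 1 to 7 in LP/alveolar (17.3% to 46.5%) and 1 to 2 in ML cells (5.84% to 20.5%) and 0 to 3 for the difference (15.1% to 29.9%) across the stages, and 0 to 2 (LP/alveolar, day 12.5, 1.05% to 19.3%), 0 to 1 (LP/alveolar, day 18.5, 0% to 6.54%) and 0 to 1 (ML, day 12.5, 1.4% to 13.5%) in single steps. The log2 difference of Cldn1 between ML and basal cells, 0.47, became 0.13 with at least 1000 genes per cell and 0.19 with marker gates. For the step to lactation, Ocln turned from 1.85 to -6.07 in basal cells and from -1.57 to 6.43 in the difference with at least 1000 genes per cell. Leaving out each library in turn, the Ocln difference ran from -2.68 to 0.13 (without F11), the Cldn7 difference, -1.10, from -2.14 to 1.3998 (without F11), and the Cldn1 step in ML cells, 2.71, from -6.58 (without D6) to 3.67. None of these values was called, and the cause was not tested. Cldn1 and Ocln held few UMIs in some libraries outside LP/alveolar cells.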
